A study of Mus musculus with 24 samples.

Results

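Diabetic and control mice were compared in the adductor, a thigh muscle that the labels call normoxic, 7 days after ligation of the femoral artery. The comparison rests on 12 of the 24 poly(A) RNA sequencing libraries of the study, the 6 named as type 2 diabetic (T2DM) adductor and the 6 named as control adductor, and on every gene of the deposited table. The other 12 libraries came from ischemic gastrocnemius and served here as further estimates of the spread. They also counted in the choice of the genes to test and of the transcript for each gene. All mice had a C57BL/6 background, and both groups carried the unilateral ligation, so neither group is from unoperated mice. The labels used here give no substrain, sex or route to diabetes, and they do not say whether each library came from its own mouse. The p-values below therefore measure the spread between these libraries, which may be partly technical.

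When the femoral artery is tied, blood reaches the lower leg through collateral arteries that run through the adductor, and these vessels widen, a process called arteriogenesis. Skeletal muscle is also a main site of insulin-driven glucose uptake, and in type 2 diabetes its handling of glucose and fatty acids is altered. Its fibres are slow and oxidative or fast and glycolytic, with their own sets of contractile proteins.

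Levels were given as RPKM, reads scaled to transcript length and to library size, from libraries of 8.62 M to 15.4 M reads with 14668 to 16958 genes above 0. Muscle markers fitted the labelled tissue: Ckm, muscle creatine kinase, was at 7547 to 20094 RPKM, whereas Myh6 of heart reached 0.743 and Alb of liver 0.274 RPKM at most. The libraries fell into 2 technical sets that the labels do not name. Set 1 held control 1 to 3 and diabetic 1 to 4, and set 2 held control 4 to 6 and diabetic 5 and 6. The first principal component, with 61.8% of the variance, separated the sets, and Gapdh was at 871 to 1743 RPKM in set 1 and 0.365 to 13.7 RPKM in set 2. Diabetic 1 stood apart on the second component, with 10.1% of the variance. Xist, the RNA that silences an X chromosome in female cells, was at 2.01 to 9.77 RPKM in libraries 2, 3 and 6 of both groups and at most 0.0435 RPKM in the others. The Y-linked Ddx3y was at 17.3 to 32.1 RPKM in libraries 1, 4 and 5 of both groups and at most 0.0649 RPKM in the rest.

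The genes called higher in diabetic adductor were Nnt, Serpina3n, Apod and Abcg1, and no tested gene was called lower. These 4 passed limma's two-sided test on log2(RPKM + 0.5) at a Benjamini-Hochberg adjusted p under 0.05, which is 0.0323% of the 12382 genes tested. With adductor libraries only in the fit, Nnt alone was called. With no filter on low values, 5 of 21039 genes were called, 3 higher (Nnt, Serpina3n and Apod) and 2 lower (E330011O21Rik and Gsta3). Among the 12382 genes, 247 at an unadjusted p under 0.05 (1.99%) had a positive and 92 (0.743%) a negative difference. Differences below are log2, diabetic minus control, with the standard error, and they understate the change of genes near or under 0.5 RPKM. Over all tested genes the median difference was 0.04.

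Nnt, nicotinamide nucleotide transhydrogenase of the inner mitochondrial membrane, makes the NADPH used to remove mitochondrial peroxide. Control libraries had 3.90 to 6.71 RPKM (median 5.65) and diabetic libraries 18.0 to 47.2 RPKM (median 36.6). The lowest diabetic library, number 1, lay well above the highest control. Means were 5.57 ± 1.01 and 35.7 ± 9.87 RPKM (SD, n = 6), a ratio of 6.4, with a log2 difference of 2.54 ± 0.23 and a limma adjusted p of 7.8e-07. The sets gave 2.35 ± 0.31 and 2.82 ± 0.31, and Nnt was the single gene called in set 1 alone (0.00808% of genes). The transcript used, a non-coding RefSeq entry, lies at chr13:120124334-120197945 on the minus strand of mouse build mm9. The protein-coding entry of Nnt had 2.98 to 5.15 RPKM in controls and 13.8 to 36.1 RPKM in diabetic libraries. Both entries count nearly the same reads over different lengths (3525 and 4613 bases). The protein-coding values are thus not a second measurement and do not show which form was present. As background, the substrain C57BL/6J is known to carry a deletion in Nnt that some other C57BL/6 substrains lack. The labels give C57BL/6 for both groups without a substrain, so substrain and diabetes cannot be told apart here.

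Of 16 tested genes of mitochondrial NADPH supply and peroxide defence, Nnt was the 1 called. Pooled, 6 had positive and 10 negative differences with a median of -0.07, while 7 were positive and 3 negative in both sets, with medians of 0.05 in set 1 and 0.10 in set 2. At an unadjusted limma p under 0.05, 3 had a positive difference (Nnt, Idh2 and Cat) and 0 a negative one. Idh2, an isocitrate dehydrogenase that also makes mitochondrial NADPH, had 25.7 to 67.3 RPKM (median 58.4) in controls and 49.6 to 84.5 RPKM (median 66.3) in diabetic libraries. Its groups overlapped, with a difference of 0.48 ± 0.21 that was 1.01 ± 0.35 in set 2 and 0.04 ± 0.19 in set 1. In set 2 the controls of Idh2 had 25.7, 30.4 and 65.7 RPKM and the diabetic libraries 71 and 80.1 RPKM. Cat, the catalase that destroys hydrogen peroxide, had 17.4 to 31.1 RPKM (median 21.6) against 27.2 to 47.1 RPKM (median 35.6), a difference of 0.69 ± 0.27. Its groups overlapped through control 2, the highest control, and the sets gave 0.57 ± 0.29 and 0.76 ± 0.27.

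Serpina3n encodes an inhibitor of serine proteases that is secreted in the acute phase. Control libraries had 1.09 to 4.57 RPKM (median 3.85) and diabetic libraries 7.23 to 27.1 RPKM (median 20.2). The groups did not overlap, and libraries 3 and 6 were the lowest in each. The difference was 2.40 ± 0.41 (limma adjusted p = 0.033), with 2.57 ± 0.46 in set 1 and 2.07 ± 0.60 in set 2. Serpina3n shares 21.6% of its 31-base words with other genes, so its level is uncertain.

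Apod encodes apolipoprotein D, a secreted lipid carrier. It had 12.3 to 24.5 RPKM (median 16.5) in controls and 27.2 to 50.5 RPKM (median 38.9) in diabetic libraries, with no overlap. The difference was 1.16 ± 0.21 (limma adjusted p = 0.037), and the sets gave 1.12 ± 0.21 and 1.18 ± 0.36. Of 19 tested acute phase and stress-secreted genes, Serpina3n and Apod were the ones called, and the median was 0.01.

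Of the 4 calls, Nnt alone passed in each of the 12 fits that left out 1 library. Serpina3n passed in 5, Apod in 3 and Abcg1 in 2 of them. Only Nnt passed without control 3, 5 or 6 or without diabetic 2, 4 or 5. Without diabetic 1 the calls were Nnt and Abcg1, and without diabetic 3 they were Nnt and Serpina3n. Abcg1 was lost without control 1 or 4, Apod without control 2, and without diabetic 6 Abcg1 was lost and Igfn1 gained.

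**Figure D1:**
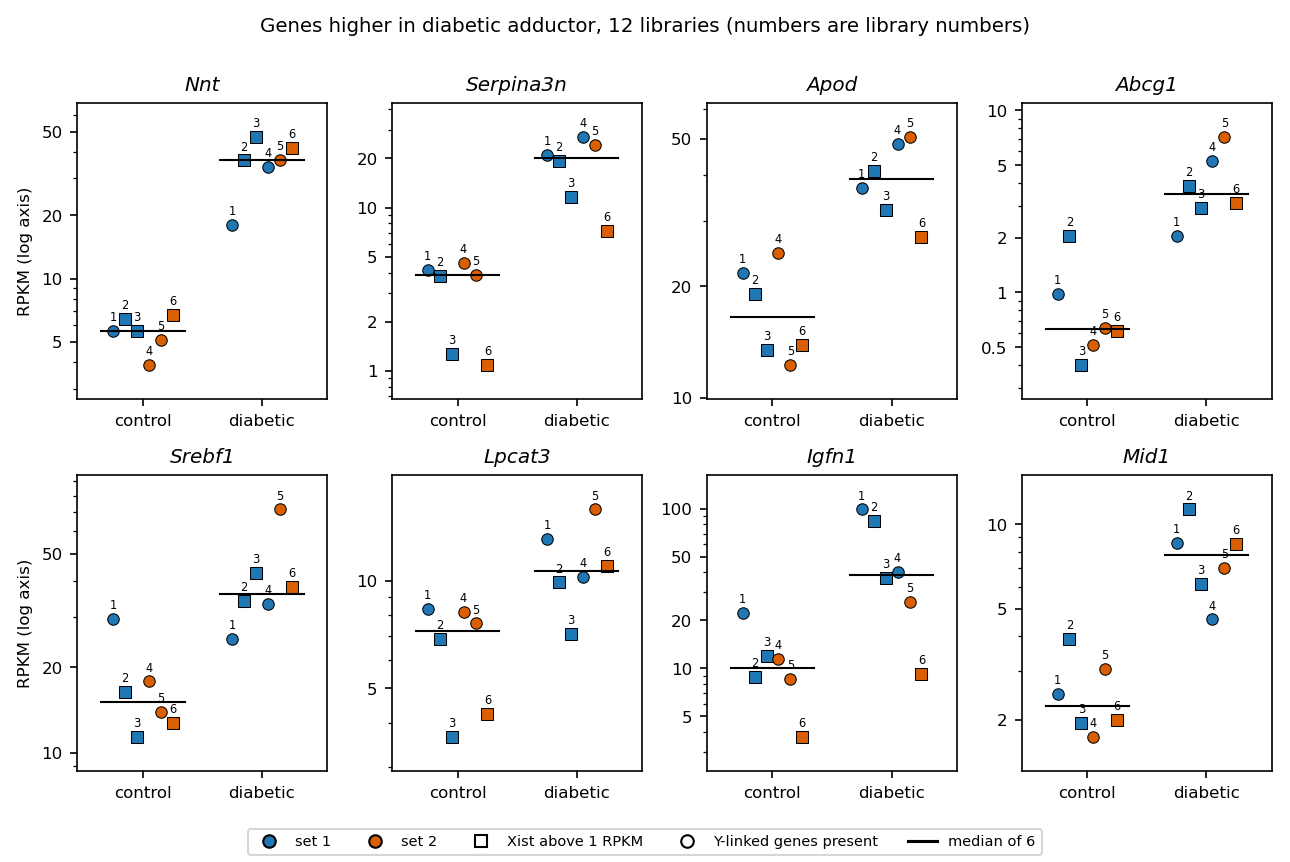
RPKM on a log axis of 8 genes in each of the 12 adductor libraries; lines are medians of 6, colour gives the technical set and squares mark libraries with Xist above 1 RPKM. The 6 diabetic libraries lie above all 6 control libraries for Nnt, Serpina3n, Apod and Mid1, while Abcg1, Srebf1, Lpcat3 and Igfn1 each have 1 diabetic library within the control range.

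Abcg1 is a target of the liver X receptors (LXR), nuclear receptors that sense oxidised cholesterol and turn on genes of cholesterol export, phospholipid remodelling and fatty acid synthesis. Of 18 tested LXR targets, 1 was called (Abcg1), and 14 had positive differences, 12 of them in both sets. The median was 0.30, with 0.11 in set 1 and 0.60 in set 2. Over all tested genes, 57% were positive, 29.4% were positive in both sets, and the set medians were -0.01 and 0.11. With terms for the technical set, 5 genes were called (0.0404%): the same 4 and Srebf1, another LXR target.

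An element of the kind LXR binds, GGTTAC and GGTCA with 4 bases of any kind between them, was looked for on both strands in the 250 bases before each start, with the letters chosen after the expression values had been seen. It was in 12 of 32851 RefSeq promoter windows (0.0365%). Those windows belonged to 9 genes, of which 4 were tested in the adductor: Srebf1, Abca1, Acsl3 and Fasn. They are shown because these 4 lipid genes carry the same element and had differences of both signs. Each line gives 60 bases, 5′ to 3′ on the strand of the gene, with the element in capitals, read there as its reverse complement:
Srebf1: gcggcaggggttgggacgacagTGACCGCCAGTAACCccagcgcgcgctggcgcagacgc
Abca1: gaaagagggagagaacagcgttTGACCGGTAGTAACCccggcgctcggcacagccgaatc
Acsl3: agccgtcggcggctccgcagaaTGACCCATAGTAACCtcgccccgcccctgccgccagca
Fasn: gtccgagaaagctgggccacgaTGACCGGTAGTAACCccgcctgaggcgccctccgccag
In build GRCm38.p6 they lie at chr11:60210616-60210675 (Srebf1, minus strand), chr4:53159925-53159984 (Abca1, minus strand), chr1:78657691-78657750 (Acsl3, plus strand) and chr11:120824735-120824794 (Fasn, minus strand). The distance from the element to the start was 168, 53, 98 and 211 bases in the same order. The direct repeat of AGGTCA with 4 bases between was in 5 windows (0.0152%) and in none of the 76 genes named here that have a window. The other motifs searched were CACGTG (6.02% of windows), AGATAA (9.99%) and TTC and GAA 3 bases apart (7.02%). The promoter table holds no window for Abcg1 and Nnt, so they were not searched. A match is a description of the letters, not a site or a cause.

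Abcg1 moves cholesterol out of cells. It had 0.401 to 2.04 RPKM (median 0.626) in controls and 2.04 to 7.16 RPKM (median 3.48) in diabetic libraries. Diabetic 1 lay just under control 2, and the other 5 diabetic libraries were above every control. The difference was 1.74 ± 0.32 (limma adjusted p = 0.046), from 1.35 ± 0.45 in set 1 and 2.27 ± 0.30 in set 2.

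Srebf1, the transcription factor that drives fatty acid synthesis genes, had 11.4 to 29.6 RPKM (median 15.1) in controls and 25.1 to 71.6 RPKM (median 36.2) in diabetic libraries. Control 1 was the highest control and diabetic 1 the lowest diabetic library, and they were the pair that overlapped. The pooled difference was 1.24 ± 0.33 (limma adjusted p = 0.83). With set terms it was 1.27 ± 0.22 (limma adjusted p = 0.028), and the sets alone gave 0.89 ± 0.29 and 1.80 ± 0.27.

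Lpcat3, Abca1 and Mylip had positive differences in both sets without passing. Lpcat3, which puts polyunsaturated fatty acids into phospholipids, had 3.64 to 8.33 RPKM (median 7.22) in controls and 7.09 to 15.8 RPKM (median 10.6) in diabetic libraries, a difference of 0.77 ± 0.21. Abca1, which loads cholesterol onto apolipoprotein A-I, had 1.99 to 8.14 RPKM (median 5.94) against 6.24 to 18.9 RPKM (median 11.3), a difference of 0.99 ± 0.38. Both genes overlapped between groups. Mylip, a ubiquitin ligase, had 6.04 to 9.77 RPKM (median 8.74) against 9.90 to 16.5 RPKM (median 15.0), a difference of 0.73 ± 0.32 with no overlap. Non-overlapping groups were seen for 24 genes with diabetic libraries above (0.194%) and 3 with diabetic libraries below (0.0242%). The share of genes without overlap within a set was not counted. Fewer libraries lie apart more easily by chance.

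Pltp, a phospholipid transfer protein, differed by set. In set 2 control libraries had 7.78 to 9.64 RPKM and diabetic libraries 28.3 and 20.2 RPKM, and it rose there by 1.40 ± 0.17 (limma adjusted p = 0.023). In set 1 the difference was -0.18 ± 0.46, with control 2 highest at 48.6 RPKM. The test between sets gave 1.57 with a limma adjusted p of 0.93. Macrophages express several LXR targets, and their markers also differed by set. Cd68 had 1.22 to 4.03 RPKM in controls and 13.3 and 6.28 RPKM in diabetic libraries of set 2, and 1.76 to 16.2 against 3.59 to 10.1 RPKM in set 1. The 37 macrophage and monocyte genes had a median of 0.43 in set 2 and -0.29 in set 1, and their summed level was 331 to 916 RPKM in controls and 410 to 677 RPKM in diabetic libraries. Their part in the LXR result was not tested. In bulk muscle, fewer cells of a type and less RNA per cell cannot be told apart.

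Fasn, Elovl6 and Acly, 3 of the 21 tested genes of fatty acid synthesis, were higher in 3 control libraries than in the other 3 controls and all 6 diabetic libraries. Fasn, fatty acid synthase, had 41.0, 43.2 and 19.8 RPKM in control 2, 3 and 6, 3.53 to 5.37 RPKM in control 1, 4 and 5, and 2.61 to 6.17 RPKM in diabetic libraries. Elovl6, which lengthens its product, had 4.16, 6.18 and 4.81 RPKM in the same 3 controls, 0.316 to 0.375 in the other 3 and 0.185 to 0.468 RPKM in diabetic libraries. Acly, the source of cytosolic acetyl-CoA, had 15.3, 14.6 and 11.1 RPKM in the 3 controls, 2.94 to 4.83 in the other 3 and 2.39 to 4.26 RPKM in diabetic libraries. The 3 high controls are the control libraries with Xist, and the 3 diabetic libraries with Xist did not reach their levels.

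Among the tested genes, 37 (0.299%) were higher in control 2, 3 and 6 than in each of the other 9 adductor libraries. Ranked by the lowest of the 3 over the highest of the 9, they were led by Elovl6 at 8.89-fold, Fasn at 3.21-fold, Tkt at 2.55-fold, Acly at 2.31-fold and Pygl at 2.19-fold. Many of the others were barely apart, down to Cebpa at 1.002-fold. Some were very low, such as Tmem121 with 0.0942 RPKM as the lowest of the 3 and 0.0582 as the highest of the 9. On the adipocyte list, 2 genes were among the 37, Slc36a2 at 1.28-fold and Cebpa. Tkt, transketolase, belongs to the pentose phosphate pathway, and Pygl breaks down glycogen. Acss2, which makes acetyl-CoA from acetate, and Slc25a1, which carries citrate out of mitochondria, were also among the 37. The count was made after the values of these genes had been seen, and no test by sex was made because the labels give none.

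In the pooled comparison no lipogenic gene passed. The difference was -1.57 ± 0.59 for Fasn, -1.51 ± 0.47 for Elovl6, -1.06 ± 0.36 for Acly, -1.10 ± 0.32 for Slc25a1 and -1.09 ± 0.35 for Tkt, and all 5 were negative in both sets. A term for libraries with Xist, added to the set terms after the data had been seen, gave 10 calls (0.0808%). The 3 lower ones were Fasn at -1.67 (limma adjusted p = 0.040), Cyp2e1 at -1.51 (0.041) and Fhl3 at -0.81 (0.043). The 7 higher ones were Nnt, Serpina3n, Apod, Abcg1, Srebf1, Igfn1 and Mid1. The term gives both mouse groups the same shift, whereas the high Fasn values were in control libraries only. As the same data prompted the term, the Fasn call is not independent support. Of 21 tested fatty acid synthesis genes, 8 were negative and 4 positive in both sets, against 14.8% and 29.4% of all genes. The median was -0.09 pooled, -0.32 in set 1 and 0.18 in set 2.

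Not every gene of the pathway had this pattern. Acsl3, which activates fatty acids, had 2.58 to 9.30 RPKM (median 4.53) in controls and 5.99 to 11.9 RPKM (median 9.56) in diabetic libraries, a difference of 0.83 ± 0.29. Scd1, a desaturase and LXR target, had 51.7 to 177 RPKM (median 94.2) against 28.5 to 187 RPKM (median 73.8), with -1.12 ± 0.58 in set 1 and 0.69 ± 0.54 in set 2. Acaca, acetyl-CoA carboxylase, was highest in control 2 and 3 at 7.10 and 7.65 RPKM but had 1.91 RPKM in control 6, and it shares 33.4% of its words with other genes.

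Fat cells between the fibres also make fatty acids. Cfd (adipsin) had 48.5 to 179 RPKM (median 90.6) in controls and 21.7 to 90.9 RPKM (median 37.0) in diabetic libraries, and Thrsp, a lipogenic nuclear protein, had 5.44 to 50.9 RPKM (median 21.1) against 5.70 to 18.2 RPKM (median 9.46). Adipoq, the defining hormone of fat cells, had 7.63 to 19 RPKM (median 10.2) in controls and 7.73 to 29.7 RPKM (median 13.9) in diabetic libraries. Of 20 adipocyte genes 13 had negative and 7 positive differences with a median of -0.14, and none passed (1 had an unadjusted p under 0.05 in limma). Their summed level was 1582 to 2873 RPKM in controls and 1827 to 2916 RPKM in diabetic libraries. Their part in the lipogenic pattern was not tested.

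**Figure D2:**
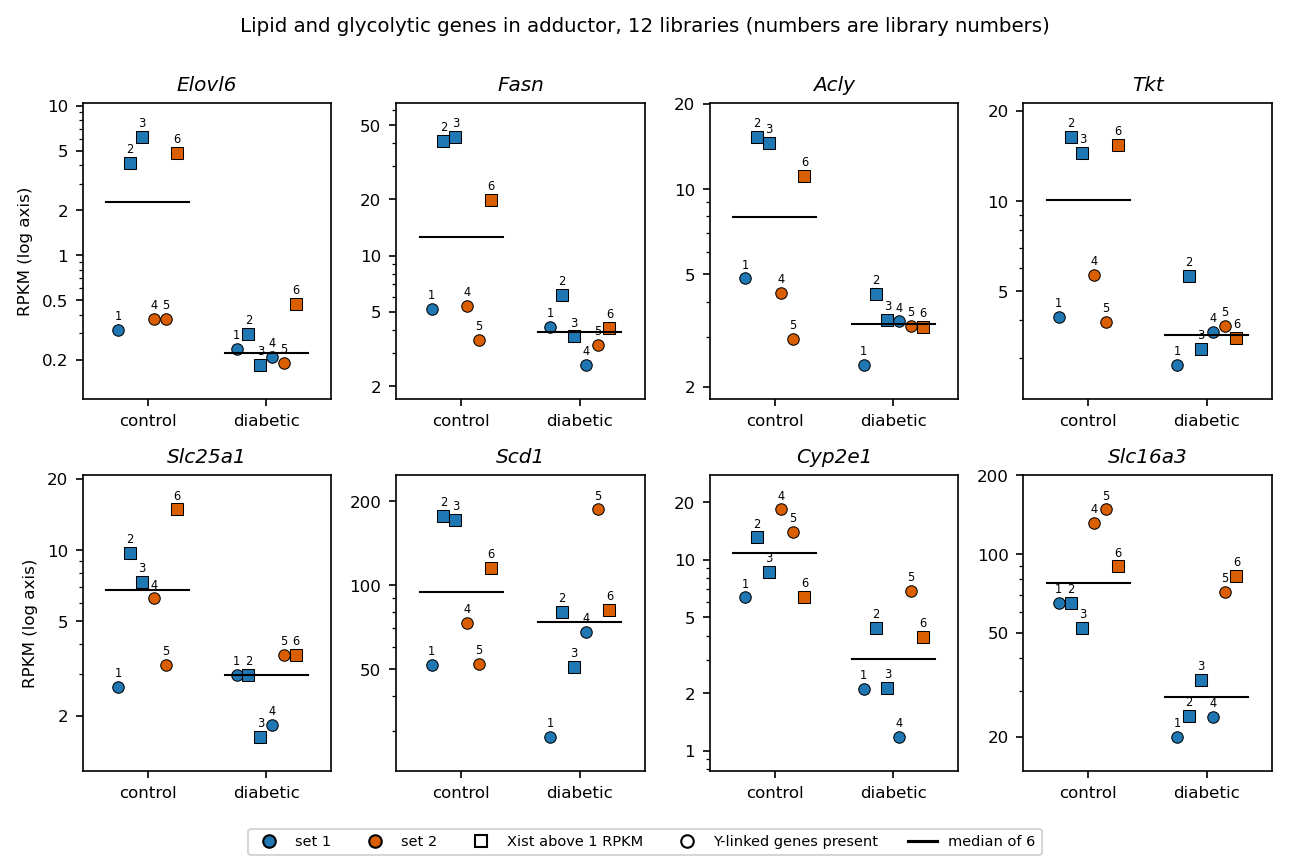
RPKM on a log axis of 8 lipid and glycolytic genes in each of the 12 adductor libraries, marked as in the plot of the higher genes. Control 2, 3 and 6 stand above the other 9 libraries for Elovl6, Fasn, Acly, Tkt and Slc25a1, but not for Scd1, Cyp2e1 or Slc16a3.

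Cyp2e1, a cytochrome P450 that oxidises ethanol and ketones, had 6.35 to 18.3 RPKM (median 10.9) in controls and 1.18 to 6.87 RPKM (median 3.04) in diabetic libraries. Diabetic 5 was the 1 diabetic library within the control range. The pooled difference was -1.63 ± 0.47 (limma adjusted p = 0.97), with -1.79 ± 0.42 in set 1 and -1.11 ± 0.42 in set 2. Of 23 tested genes of cholesterol synthesis and uptake, 10 were negative and 2 positive in both sets, with a median of -0.05. Lpin1, a phosphatidate phosphatase, had 34.1 to 122 RPKM (median 59.3) in controls and 34.0 to 44.4 RPKM (median 37.3) in diabetic libraries, with its high values in control 4 to 6.

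Genes of fatty acid oxidation gave no call. Of 43 tested, 29 had positive differences (67.4% against 57% of all genes), 21 were positive (29.4% of all genes were) and 6 negative in both sets, and the set medians were 0.10 and 0.20 against -0.01 and 0.11 over all genes. None was called by limma, and 2 had an unadjusted p under 0.05. Fabp3, the fatty acid carrier of muscle cytosol, had 91.3 to 161 RPKM (median 98.1) in controls and 106 to 330 RPKM (median 210) in diabetic libraries, but it shares 37.3% of its words with other genes and is uncertain. Acadl, a mitochondrial acyl-CoA dehydrogenase, had 63.8 to 120 RPKM (median 88.3) against 96.2 to 173 RPKM (median 109). The groups of Acadl overlapped when pooled and not within set 1, where the difference was 0.61 ± 0.18. How many of all genes lie apart within set 1 was not counted. Pdk4, the kinase that restrains glucose oxidation, had 44.8 to 668 RPKM (median 96.0) in controls and 48.6 to 227 RPKM (median 106) in diabetic libraries, with no order between the groups.

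Slow fibre genes had mostly positive and fast fibre genes mostly negative differences, and no member was called in the pooled fit. Of 14 slow contractile genes, 10 were positive and 0 negative in both sets, with a median of 0.61 (0.38 in set 1 and 0.74 in set 2). Of 20 fast contractile genes, 12 were negative and 1 positive in both sets, with a median of -0.35 (-0.25 and -0.12). At an unadjusted limma p under 0.05, 2 slow genes had a positive difference, and 0 fast genes passed in either direction.

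Atp2a2, the calcium pump of slow fibres, had 17.3 to 74.1 RPKM (median 35.1) in controls and 59.9 to 120.0 RPKM (median 67.8) in diabetic libraries. Control 3 was the 1 control above the lowest diabetic libraries. The difference was 1.12 ± 0.30, with 0.47 ± 0.26 in set 1 and 1.65 ± 0.18 in set 2, where it passed (limma adjusted p = 0.012). Myl2, the slow regulatory light chain, had 22.1 to 121 RPKM (median 55.8) against 67.1 to 176 RPKM (median 165), a difference of 1.45 ± 0.79. Diabetic 4 was the low diabetic library, and the other 5 exceeded every control. The slow troponins Tnnt1 and Tnni1 had differences of 0.63 ± 0.27 and 0.60 ± 0.32. Sln, sarcolipin, which regulates the calcium pump, reached 198 RPKM in diabetic 1 against 4.79 to 43.9 RPKM in control libraries and 13.4 to 41.6 RPKM in the other diabetic ones.

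Glycolytic genes had negative differences, larger in set 1. Of 38 genes of glycolysis and glycogen, 21 were negative and 4 positive in both sets, with medians of -0.37 in set 1 and -0.05 in set 2. Slc16a3, which exports lactate from fast fibres, had 52.3 to 148 RPKM (median 77.3) in controls and 19.9 to 82.5 RPKM (median 28.5) in diabetic libraries, a difference of -1.22 ± 0.36. Within each set every diabetic library was below every control, with -1.27 ± 0.31 and -0.64 ± 0.24, and the share of all genes with such a separation was not counted. Ldha, which makes lactate, and the glycolytic enzyme genes Eno3 and Tpi1 had -0.86, -1.14 and -0.85 in set 1 and -0.14, -0.03 and 0.00 in set 2. Mylpf, the fast regulatory light chain, had 4530 to 10206 RPKM (median 7601) against 2832 to 8351 RPKM (median 4107), a difference of -0.67 ± 0.42. Fhl3, a LIM protein of muscle, had 81.6 to 272 RPKM (median 134) against 56.9 to 141 RPKM (median 70.6), a difference of -0.94 ± 0.29.

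Oxidative phosphorylation did not go with the slow fibre genes. Of 51 genes 49 had negative differences, 28 of them in both sets and 1 positive in both, with a pooled median of -0.30. The within-set medians were smaller, at -0.15 and -0.13. The summed level differed mainly between sets, at 8764 to 12200 RPKM in the 7 libraries of set 1 and 18133 to 21879 RPKM in the 5 of set 2. Cox7a1, a muscle subunit of cytochrome oxidase, had 180 to 539 RPKM (median 323) in controls and 110 to 402 RPKM (median 144) in diabetic libraries, a difference of -0.80 ± 0.57. No member was called, and 0 had an unadjusted limma p under 0.05.

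**Figure D3:**
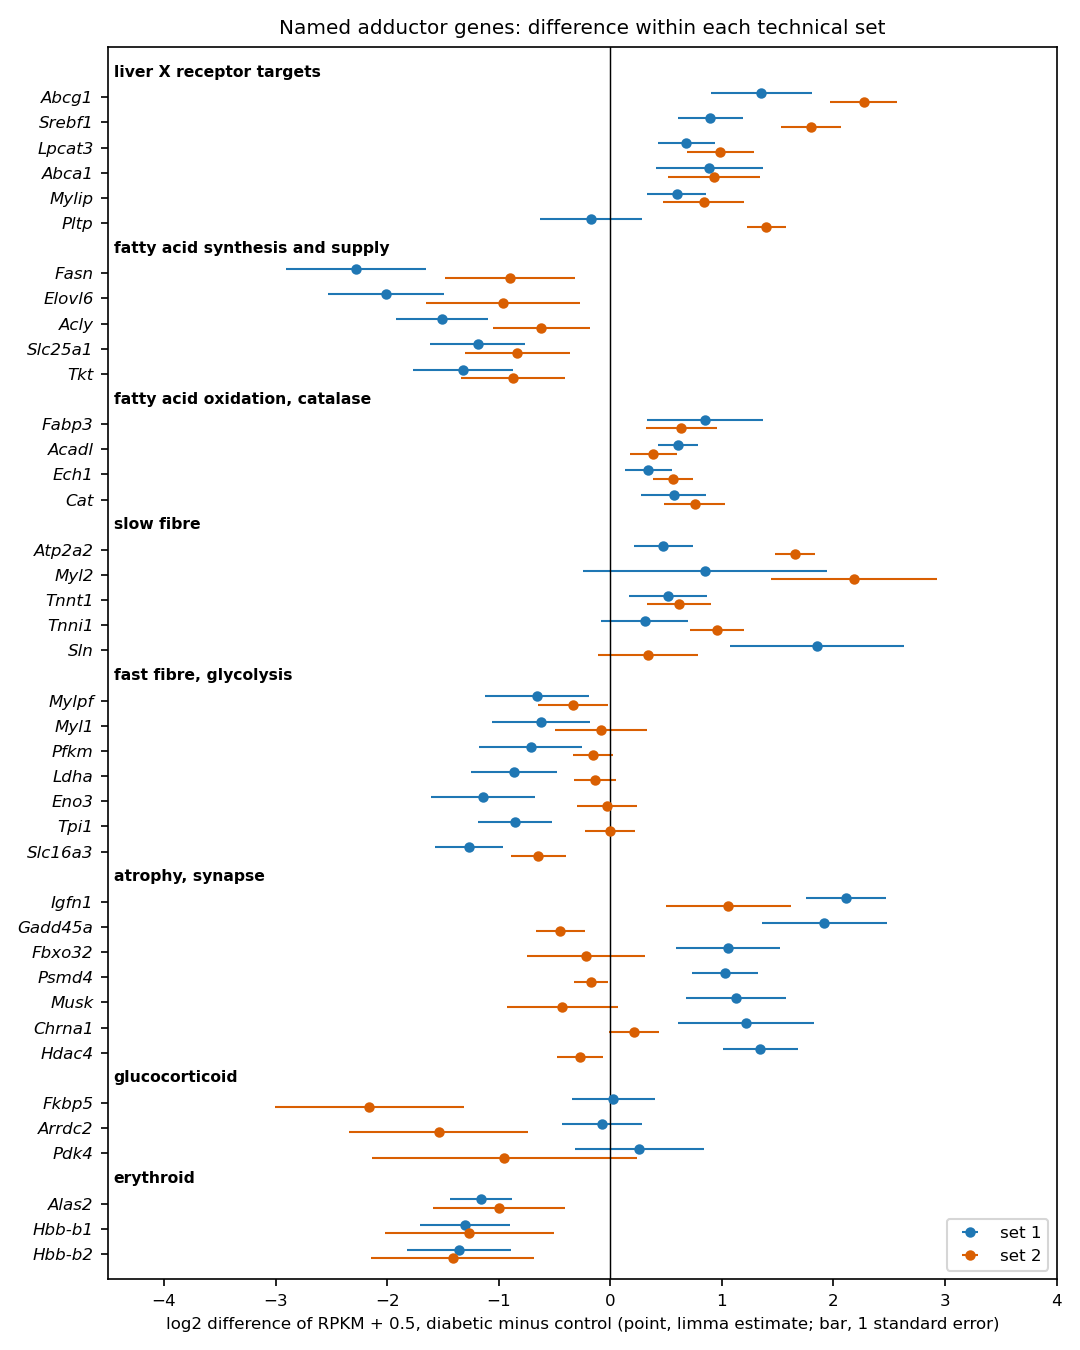
Log2 difference of RPKM + 0.5, diabetic minus control, within set 1 (3 control and 4 diabetic libraries) and set 2 (3 control and 2 diabetic libraries), with bars of 1 standard error from limma. The LXR targets shown, other than Pltp in set 1, and the slow fibre genes lie above 0, the synthesis genes below 0 in both sets, and most atrophy genes on opposite sides in the 2 sets.

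Igfn1, a large immunoglobulin-domain protein of the muscle Z-disc, had 3.71 to 22.3 RPKM (median 10.1) in controls and 9.19 to 99.1 RPKM (median 38.6) in diabetic libraries. Diabetic 6 was the 1 diabetic library within the control range. The difference was 1.90 ± 0.44 (limma adjusted p = 0.49), with 2.11 ± 0.36 in set 1 and 1.06 ± 0.56 in set 2. Rb1, the retinoblastoma cell cycle brake, had 3.02 to 5.48 RPKM (median 4.25) against 4.79 to 21.9 RPKM (median 10.3), a difference of 1.11 ± 0.31. Nabp1, a single-strand DNA binding protein, had 3.93 to 8.33 RPKM (median 4.70) against 5.63 to 22.3 RPKM (median 11.4), a difference of 1.14 ± 0.28. For Rb1 and Nabp1 the higher values were in set 1.

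Several genes of muscle atrophy and denervation had positive differences in set 1 and negative or small ones in set 2, and none of them was called in either set. The atrophy and FoxO list had 23 of 28 positive pooled differences, but 5 positive and 0 negative in both sets, with medians of 0.48 in set 1 and -0.24 in set 2 beside -0.01 and 0.11 over all genes. In set 2 its summed level was 2639, 2302 and 1699 RPKM in control 4, 5 and 6 and 1615 and 1458 RPKM in diabetic 5 and 6. It shares Fbxo32, Trim63, Foxo1, Foxo3, Cdkn1a, Ddit4, Mt1 and Mt2 with the list of glucocorticoid-responsive genes, which was high in control 4 and 5. The 2 lists are therefore not separate results. Hdac4, Musk and Chrna1, named below, are not on the atrophy list. Fbxo32 (atrogin-1), a ubiquitin ligase of muscle wasting, had 37.5 to 55.6 RPKM in controls and 51.6 to 169 RPKM in diabetic libraries of set 1, and 44.9 to 66.1 against 44.3 and 48.0 RPKM in set 2. Gadd45a, a stress gene induced by denervation, had 7.52 to 14.6 against 19.3 to 172 RPKM in set 1 and 29.4 to 40.2 against 21.9 and 26.6 RPKM in set 2. Hdac4, a histone deacetylase of denervated muscle, had 5.24 to 6.18 against 9.29 to 24.6 RPKM in set 1 and 1.37 to 1.56 against 1.34 and 0.913 RPKM in set 2. For Gadd45a and Hdac4 the groups did not overlap in either set, with diabetic libraries above the controls in set 1 and below them in set 2. How many of all genes lie apart in this way within a set was not counted. Musk and Chrna1, the organising kinase and a subunit of the acetylcholine receptor cluster, had 1.13 ± 0.45 and 1.22 ± 0.61 in set 1 and -0.43 ± 0.50 and 0.21 ± 0.23 in set 2. Diabetic 1, the library that stood apart, had the highest value of all 12 for Fbxo32, Gadd45a, Hdac4, Musk and Chrna1. Without it the pooled difference of Gadd45a went from 0.89 ± 0.49 to 0.44 ± 0.43 and that of Fbxo32 from 0.58 ± 0.37 to 0.34 ± 0.36. The test between sets did not pass for Hdac4 (limma adjusted p = 0.58), Gadd45a (0.75), Fbxo32, Musk or Chrna1 (0.96 each).

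Genes that glucocorticoids induce were high in 2 control libraries. Fkbp5, a chaperone of the glucocorticoid receptor, had 26.4 and 32.6 RPKM in control 4 and 5, 3.02 to 7.77 RPKM in the other controls and 2.85 to 7.65 RPKM in diabetic libraries. Arrdc2, an arrestin-like protein, had 29.2 and 41.7 RPKM in control 4 and 5, and Pdk4 had 550 and 668 RPKM there. The summed level of the list was 2266 and 2276 RPKM in these libraries and 444 to 1139 RPKM in the other 10. Its median was -0.03 pooled, 0.44 in set 1 and -0.36 in set 2, and none of the 24 genes was called (1 had a negative difference at an unadjusted limma p under 0.05).

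Alas2 and the beta-globin genes of red cells had negative differences in both sets. Alas2, the first enzyme of heme synthesis in red cells, had 0.770 to 4.28 RPKM (median 1.52) in controls and 0.233 to 1.14 RPKM (median 0.575) in diabetic libraries, a difference of -1.08 ± 0.29 (limma adjusted p = 0.83). Hbb-b1, adult beta-globin, had 47.9 to 455 RPKM (median 91.2) against 21.5 to 92.4 RPKM (median 35.7), a difference of -1.47 ± 0.55. Control 4 was the high library for both genes. The sets gave -1.16 and -1.0 for Alas2 and -1.30 and -1.26 for Hbb-b1. Of 12 tested erythrocyte genes, 9 were negative, 5 of them in both sets, and the median was -0.34 pooled, -0.43 in set 1 and 0.07 in set 2. Sptb, a spectrin that muscle also makes, went the other way with 13.9 to 38.6 RPKM (median 25.9) against 26.3 to 74.4 RPKM (median 69.3). The amount of blood left in each sample was not measured, and its part in these values was not tested.

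Vessel genes, looked at because collateral arteries run through the adductor, gave no call. None of 37 arteriogenesis and shear stress genes, 36 endothelial genes or 22 smooth muscle and pericyte genes was called, and 0 of each had an unadjusted limma p under 0.05. Their pooled medians of -0.03, 0.00 and 0.04 joined opposite signs in the sets: -0.21, -0.18 and -0.25 in set 1 and 0.19, 0.23 and 0.31 in set 2. The 40 genes of VEGF, angiopoietin and guidance signals likewise had -0.29 in set 1 and 0.39 in set 2. Figf (vascular endothelial growth factor D) had 2.13 to 3.51 RPKM (median 2.63) in controls and 3.18 to 7.07 RPKM (median 4.58) in diabetic libraries, a difference of 0.66 ± 0.18 (limma adjusted p = 0.86) that was 0.67 ± 0.28 in set 1 and 0.55 ± 0.17 in set 2. Vegfa, the main angiogenic factor, had 14.5 to 34.5 RPKM (median 20.5) against 9.49 to 33.8 RPKM (median 14.5). Its medians were 16.9 against 12.3 RPKM in set 1 and 26.6 against 31.4 RPKM in set 2, so the direction differed by set. Kdr, its endothelial receptor, had 1.45 to 7.76 RPKM (median 5.97) against 4.12 to 7.13 RPKM (median 5.88), with the low values in control 4 and 5. Cxcr4, a chemokine receptor, had 0.819 to 4.43 RPKM (median 2.03) against 0.768 to 1.61 RPKM (median 1.10), a difference of -0.68 ± 0.32. Igf2, a growth factor of regenerating muscle, was at 119.8 RPKM in control 2 and 6.44 to 11.4 RPKM in the other 11 libraries, and it shares 61.9% of its words with other genes.

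Matrix and stromal genes had opposite signs in the sets. Of 45 collagens and matrix genes 35 had negative pooled differences, with medians of -0.65 in set 1 and 0.32 in set 2, and 5 were negative in both sets. Their summed level was 2234 RPKM in control 2 and 524 to 1086 RPKM in the other 11 libraries. Fibroblast and progenitor markers had medians of -0.54 and 0.38. Igf1, a growth factor made by muscle and stroma, had 3.39 to 10.1 RPKM (median 7.74) in controls and 2.91 to 7.12 RPKM (median 4.25) in diabetic libraries, a difference of -0.56 ± 0.29.

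Interferon-stimulated genes had small positive differences. Of 38 tested, 34 were positive, 19 of them in both sets, and the median was 0.20, with 0.07 in set 1 and 0.32 in set 2. None was called, and 0 had an unadjusted limma p under 0.05. Irgm1, an immunity-related GTPase, had 3.99 to 8.04 RPKM (median 5.22) in controls and 6.32 to 12.1 RPKM (median 7.92) in diabetic libraries, a difference of 0.51 ± 0.26. Il18, an inflammatory cytokine, had 0.343 to 1.70 RPKM (median 1.04) against 0.260 to 0.804 RPKM (median 0.360), a difference of -0.68 ± 0.28.

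**Figure D4:**
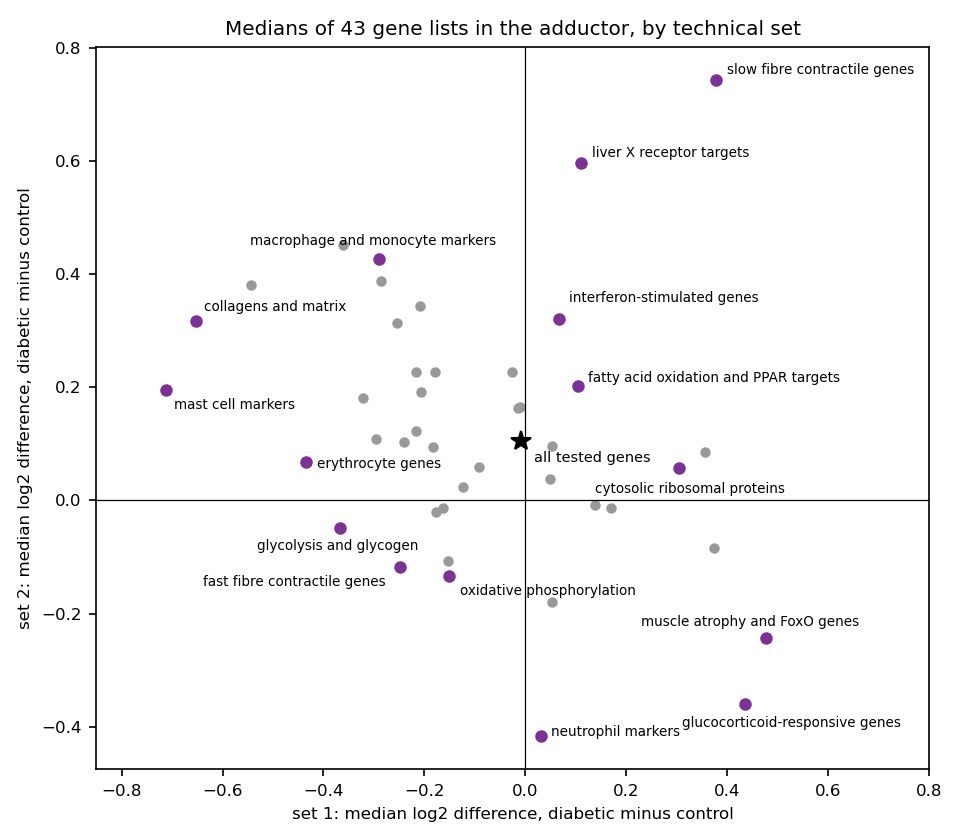
Median log2 difference, diabetic minus control, of 43 gene lists in set 1 (horizontal) and set 2 (vertical), with a star for all tested genes at -0.01 and 0.11. Slow fibre genes and LXR targets lie in the upper right, fast fibre and glycolysis genes in the lower left, and atrophy and matrix genes have opposite signs in the sets.

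Insulin signalling genes differed little. Of 35 tested, 23 were positive with a median of 0.07, and none was called (2 had a positive difference at an unadjusted limma p under 0.05). Slc2a4, the insulin-regulated glucose transporter GLUT4, had 109 to 154 RPKM (median 130) in controls and 67.3 to 157 RPKM (median 104) in diabetic libraries, a difference of -0.29 ± 0.39. The medians of Slc2a4 were 110 against 91.7 RPKM in set 1 and 149 against 153 RPKM in set 2. Trib2, a pseudokinase, had 3.21 to 4.56 RPKM (median 4.01) against 4.75 to 5.32 RPKM (median 5.20), a small difference of 0.32 ± 0.14 with no overlap. Gsk3b, a kinase that restrains glycogen synthesis, had 11.1 to 14.5 RPKM (median 12.6) against 13 to 17.9 RPKM (median 15.9).

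Further genes separated the groups without passing. Mid1, a ubiquitin ligase on microtubules, had 1.74 to 3.90 RPKM (median 2.24) in controls and 4.58 to 11.3 RPKM (median 7.76) in diabetic libraries, a difference of 1.43 ± 0.29 (limma adjusted p = 0.15), with 1.29 ± 0.38 and 1.60 ± 0.40 in the sets. Vezt, a junction protein, had 5.75 to 8.73 RPKM (median 6.78) against 9.19 to 12.8 RPKM (median 11.4), a difference of 0.65 ± 0.16. Snapc1, a subunit of the complex that transcribes small nuclear RNA, had 2.02 to 3.37 RPKM (median 2.20) against 0.742 to 1.66 RPKM (median 1.39), a difference of -0.70 ± 0.17. Neither gene overlapped between groups, and nor did Mid1. Tfrc, the transferrin receptor that brings iron into cells, had 15.8 to 25.5 against 5.94 to 7.97 RPKM in set 1 and 27.3 to 44.5 against 31.9 and 31.3 RPKM in set 2. The Tfrc groups were thus apart in set 1 and overlapped in set 2, and the test between sets gave 1.45 with a limma adjusted p of 0.44. The share of all genes that lie apart within set 1 was not counted.

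Set 2 alone gave 14 calls (0.113%), 12 higher and 2 lower. Beside Nnt, Abcg1, Atp2a2 and Pltp they held Gapdh, 6 ribosomal protein genes (Rpl10, Rpl23a, Rpl24, Rpl35, Rps12 and Rps25), Gm6787, Mir6929 and Mir8092. Of the 14, 57.1% share at least 20% of their words with other genes, against 7.86% of all genes with a value. Rpl24, a ribosomal protein, had 0.438 to 0.851 RPKM in controls and 4.65 and 4.45 RPKM in diabetic libraries of set 2, and 164 to 404 RPKM in set 1. Gapdh had 0.365 to 0.831 RPKM against 13 and 13.7 RPKM in set 2. Library size also went with mouse group there, at 10.1 M to 10.8 M reads in controls and 8.89 M and 8.62 M in diabetic libraries. A technical difference between these controls and diabetic libraries cannot be told apart from diabetes. That holds for every difference within set 2, also for Abcg1, Atp2a2 and Pltp. The test between sets called 2 genes (0.0162%), Gapdh at 4.0 and Gm6787 at -1.95, and both share over 20% of their words.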

How the data were processed

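RPKM values for 33022 transcripts came from the deposited table, which the authors made with HOMER from RefSeq transcripts on mm9, per the file headers; per the submitters' processing notes TopHat is among the tools, version not given, and strand use is not given in the sources used here, so overlapping genes cannot be told apart. The transcript with the highest mean over the 24 libraries stood for each of 24016 symbols. The filter below counted the same 24 libraries, so a tested gene can be low in adductor. Genes at 1 RPKM or more in 6 or more libraries were tested with limma 3.58.1 (R 4.3.3) on log2(RPKM + 0.5), with 4 group means over 24 libraries and an intensity trend, two-sided, adjusted over 12382 genes; the same was fitted with set terms, in each set and for the set difference. Of values above 0, 99.97% were whole reads within 0.01, and limma-voom on those reads called the same 4 genes. The fit was tested on simulated data with independent normal noise and no technical sets, so that test does not cover the effect of the sets. Replicates differed by more than sampling noise (chi-square per degree of freedom 13.7 to 214 over 30 pairs). Genes, lists and the 2 sets were chosen with earlier results of these data known. Named genes were those called, those with the smallest p of each list, those highest or lowest with one sign in both sets, those without overlap, those with opposite signs, and a fixed few; Fasn, Pltp, Scd1, Acaca, Acss2 and Pygl were chosen after their values were seen.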

Additional observations from a re-analysis of the deposited data

Results flagged for a closer look

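In 8 of 190 groups of 6 libraries (4.21%), 1 library lay far from the other 5 by Dixon's ratio. They were Nnt at 18.0 RPKM in diabetic 1, Hbb-b2 at 95.1 RPKM in control 4, Atp2a2 at 120.0 RPKM in diabetic 3, Myl2 at 67.1 and Tnni1 at 34.0 RPKM in diabetic 4, Actc1 at 825 RPKM in diabetic 6, Igf2 at 119.8 RPKM in control 2 and Snapc1 at 3.37 RPKM in control 5. Chance gives about 1 in 20 for 6 values from 1 normal distribution. Each group here spans 2 technical sets, and many genes were chosen by their values, so the 4.21% cannot be set against that rate.

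The difference between mouse groups was not the same in the 2 technical sets for Gapdh (4.0 ± 0.53, limma adjusted p = 0.0032) and Gm6787 (-1.95 ± 0.31, limma adjusted p = 0.018), given as set 2 minus set 1 on the log2 scale. Both genes share words with other genes, 27.2% for Gapdh and 38.0% for Gm6787, and the part of that sharing was not tested beyond leaving such genes out.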

How the results depend on the processing

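The pooled count of 4 calls (limma) became 1, Nnt, with adductor libraries only, and 1 to 4 with each library left out. With no filter it was 5, losing Abcg1 and gaining E330011O21Rik and Gsta3, both lower. Pseudocount 1 lost Abcg1, and median-of-ratios scaling lost Apod and gained Mid1. The 5 calls with set terms became 9 at pseudocount 0.1, 8 with median-of-ratios scaling and 10 with the Xist term, and 1 to 5 with a library left out. The 1 call in set 1 became 3 with no filter, and 0 with median-of-ratios scaling (944 genes at an unadjusted p under 0.05) or adductor libraries only (1051). With a library left out it was 0 to 38, and 38 was without diabetic 3. The 14 calls in set 2 became 6 without genes sharing words, and 1 to 11 with a library left out; 1 was without diabetic 5. The 2 calls between sets became 6 with no filter, 4 with median-of-ratios scaling, 1 with summed transcripts, 8 with adductor libraries only and 0 without genes sharing words (543 unadjusted), and 0 to 7 with a library left out. The cause was not tested.

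With the replicate block the pooled count was 3 (Igfn1, Nnt and Serpina3n). Deviations of same-numbered libraries from the mean of their group and set correlated at 0.0053, 0.14, 0.25, -0.05, 0.14 and 0.32, not all above 0.1, so the numbers were not taken as pairs. With a library left out Igf2 ranged from -0.71 to 0.11, and it changed sign without control 2. Of the values of named genes under the alternatives, 2043 kept direction and side of the threshold, 35 lost the call, 3 gained it and 1 changed sign. Set 2 has 2 diabetic libraries, which limits its precision.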

Other observations

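Several genes outside the groups above had the same sign in both sets. Slc6a9, a glycine transporter, had 0.654 to 2.95 RPKM (median 2.04) in control and 1.48 to 6.11 RPKM (median 4.44) in diabetic libraries, a log2 difference of 0.95 ± 0.27. Aox1, an aldehyde oxidase, had 1.33 to 4.11 RPKM (median 2.39) against 2.47 to 6.26 RPKM (median 5.54), and within each set every diabetic library was above every control. Ccrn4l (nocturnin), a rhythmic phosphatase, had 2.63 to 22.6 RPKM (median 5.12) against 1.65 to 6.84 RPKM (median 2.58). Gadd45b, a stress gene, had 9.52 to 16.5 RPKM (median 14.0) against 4.44 to 14.3 RPKM (median 6.43), and within each set every diabetic library was below every control. None of these 4 passed the pooled test, and the share of all genes that lie apart within each set was not counted.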
